A study of Mus musculus with 22 samples.

Results

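The striated muscle myosin light chain genes *Myl1*, *Myl2*, *Myl3*, *Myl4*, *Myl7* and *Mylpf*, and the light chain kinase genes *Mylk2* and *Mylk4*, were followed in mouse brown adipose tissue (BAT). These 8 genes, of 55487 identifiers counted, were chosen by name as a family, and *Myl1* was singled out by its readout, a small variation between these same libraries while other muscle transcripts varied, so the spread of *Myl1* is given as a description and not as a test. CPEB2 is an RNA-binding protein that controls the translation of its target mRNAs, and the study compared BAT of mice lacking it in all tissues (CPEB2-KO) with BAT of wild-type (WT) mice. One cohort held 5 WT and 5 KO mice of 21 to 25 weeks without virus. In the other, mice of both genotypes, 3 for each genotype and virus (AAV-GFP or AAV-PRDM16), received 2e+10 vector genomes of adeno-associated virus (AAV) in 30 µl at 16 weeks, and BAT was taken 9 weeks later, at 25 weeks. The virus carried green fluorescent protein or flag-tagged PRDM16, a transcription cofactor that promotes the brown adipocyte fate, and was placed in BAT itself. All mice are labelled male and were on the same chow diet. According to the paper, the mice without virus were deprived of food for some hours before collection, and it states no such step for the AAV mice. RNA came from the trimmed depot without sorting of cells, so every cell type in it was counted together, and fewer cells of a type and less RNA per cell cannot be told apart.

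Each myosin motor of a sarcomere carries an essential and a regulatory light chain on its lever arm. Muscle types use different light chain genes, and kinases phosphorylate the regulatory chain to tune force. Brown adipocytes and skeletal myocytes descend from shared precursors that express *Myf5*, and skeletal muscle lies directly beside interscapular BAT.

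Some libraries stood apart or went against their labels. *Cpeb2* was at 11.7 CPM (a gene's count relative to the library total, scaled by edgeR's TMM method) in mouse 1 labelled KO, within the WT range of 7.69 to 14.3 CPM, and at 2.10 to 5.78 CPM in the other 4 untreated KO mice. In the AAV cohort *Cpeb2* was at 4.33 to 5.55 CPM in KO libraries and at 10.47 to 13.96 CPM in WT libraries. Y-linked transcripts were missing, at no more than 1.17 CPM in sum, from 6 of the 10 untreated libraries, which held *Xist*, the X-inactivation RNA of female cells, at 104 to 305 CPM. WT mouse 4 held both, with 115.7 CPM of Y-linked transcripts and 14.0 CPM of *Xist*. Y-linked transcripts were present in 3 of 5 WT and 1 of 5 KO libraries, so their presence was unevenly spread over the untreated genotypes. Among the 4 untreated libraries that held them, WT mice 1 and 2 had the highest Y-linked sums (192.8 and 190.8 CPM). Their *Xist* was at 0.0876 and 0.0310 CPM, so both went with the male label. Values are also given without these 2 mice, which does not remove the libraries that go against that label. Library totals were 55320927 to 162721202 counts without virus and 61636889 to 143005309 counts with AAV. Brown fat markers summed to at least 3937 CPM in every library (*Ucp1*, *Cidea* and 8 others), with none of the 10 at 0. Markers of fast skeletal muscle (*Myh4*, *Acta1* and 10 others) were also present in every untreated library, where they summed to between 8.64 and 6980 CPM.

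The level of *Myl1*, the essential light chain of fast skeletal fibers, was read first. *Myl1* (ENSMUSG00000061816) lies on the minus strand of GRCm38 at chr1:66924295-66945404, overlaps no other annotated gene, and has 8 annotated transcripts, which begin at its 5′ end or near base 66935354 inside the gene. In untreated WT BAT it was at 34.7, 35.2, 100.9, 43.2 and 36.2 CPM in mice 1 to 5. In untreated KO BAT it was at 145.2, 276.4, 35.1, 36.2 and 42.1 CPM in mice 1 to 5. WT mouse 3 and KO mice 1 and 2 were therefore high, and the other 7 libraries lay between 34.7 and 43.2 CPM. With AAV-GFP, *Myl1* was at 32.8, 32.9 and 36.3 CPM in WT and at 34.7, 31.9 and 30.4 CPM in KO. With AAV-PRDM16 it was at 28.0, 35.5 and 38.6 CPM in WT and at 32.1, 37.1 and 38.5 CPM in KO. No group of the AAV cohort stood apart from the others in *Myl1*, and the highest AAV library held 1.38 times the level of the lowest. In the untreated cohort the same ratio was 7.98.

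*Mylpf*, the phosphorylatable regulatory light chain of fast fibers and the partner of *Myl1* on the same motor, spanned a far wider range. *Mylpf* (ENSMUSG00000030672, chr7:127208890-127214298, plus strand) was at 3.44, 2.86, 75.1, 0.888 and 2.37 CPM in untreated WT mice 1 to 5. In untreated KO mice 1 to 5 it was at 107.7, 208.8, 4.18, 0.397 and 40.2 CPM. The same 3 libraries that were high in *Myl1* were highest in *Mylpf*, and KO mouse 5 came next in *Mylpf*, while its *Myl1* level lay within the range of the 7 lower libraries. Under AAV, *Mylpf* fell within 0.183 to 0.841 CPM in 11 libraries and reached 3.29 CPM in mouse 1 of KO + AAV-GFP. In that mouse *Myl1* was at 34.7 CPM, inside the range of the other AAV libraries.

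**Figure D1:**
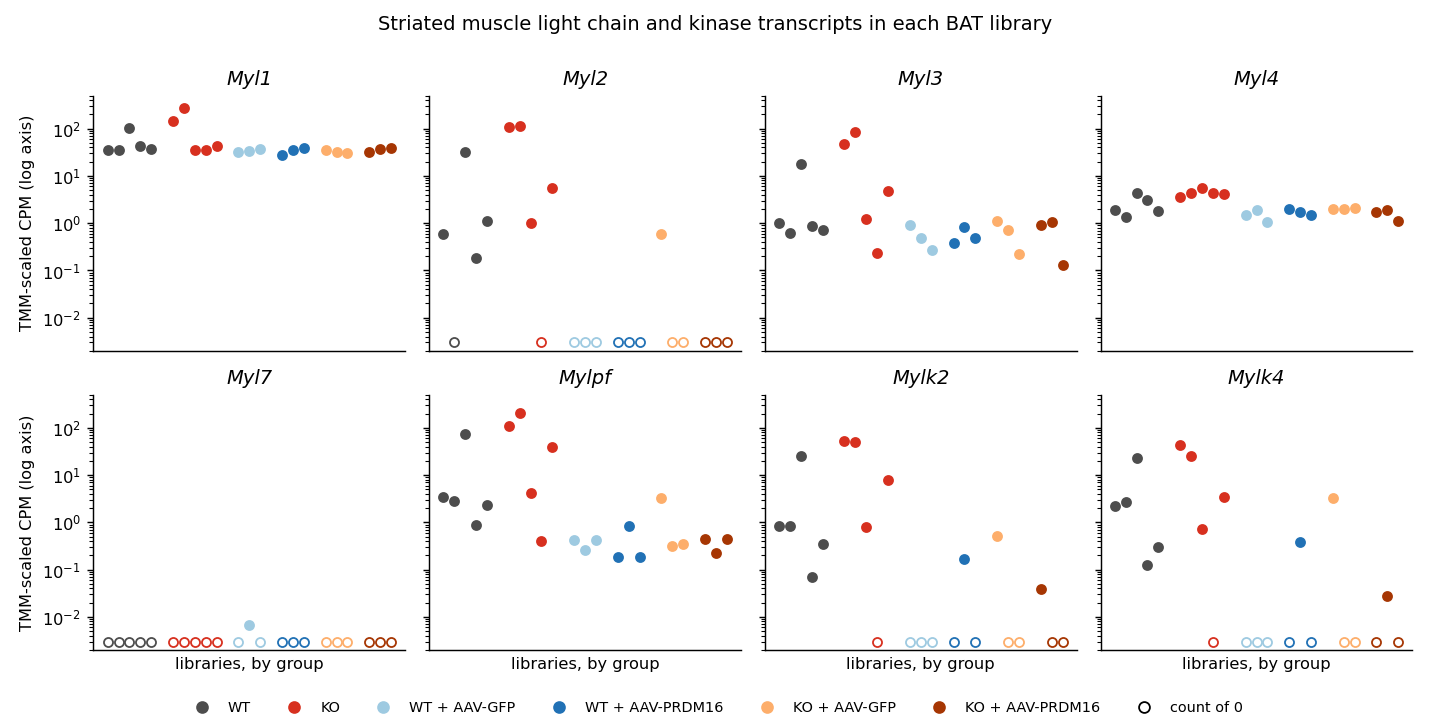
Level of each gene in each of the 22 BAT libraries, as TMM-scaled CPM on a log axis, with 1 point per mouse, coloured by group, and open circles at the bottom for a count of 0. *Myl1* stays between 28.0 and 38.6 CPM in all 12 AAV libraries, while *Myl2*, *Mylk2* and *Mylk4* are at 0 in most of them and *Myl7* holds 1 count in all.

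The stretch upstream of the RefSeq start site is shown for *Myl1* and *Mylpf*, which differed in spread, and for *Myl3* and *Myl7*, the light chains whose stretch holds a CArG box, the site of serum response factor. The RefSeq promoter table (GRCm38.p6) gave a window of 250 bases before the start for 7 of the 8 genes, and only bases outside every annotated exon are printed. GENCODE also lists transcripts of *Myl1*, *Mylpf* and *Myl3* that begin farther upstream, so these stretches lie within the gene spans given here. The printed stretch ends 88 bases before the RefSeq start in *Myl1*, 33 bases before it in *Myl3*, and at the start in *Mylpf* and *Myl7*. The *Myl1* stretch is chr1:66945144-66945290 on the minus strand, the *Mylpf* stretch chr7:127211358-127211607 on the plus strand, the *Myl3* stretch chr9:110763428-110763645 on the plus strand and the *Myl7* stretch chr11:5898783-5899032 on the minus strand. Capitals mark each E-box (CANNTG, bound by myogenic and other basic helix-loop-helix factors) and each CArG box, searched on both strands.
Myl1: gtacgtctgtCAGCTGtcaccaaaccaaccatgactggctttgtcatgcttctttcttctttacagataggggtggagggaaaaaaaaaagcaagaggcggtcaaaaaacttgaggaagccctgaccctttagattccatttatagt
Mylpf: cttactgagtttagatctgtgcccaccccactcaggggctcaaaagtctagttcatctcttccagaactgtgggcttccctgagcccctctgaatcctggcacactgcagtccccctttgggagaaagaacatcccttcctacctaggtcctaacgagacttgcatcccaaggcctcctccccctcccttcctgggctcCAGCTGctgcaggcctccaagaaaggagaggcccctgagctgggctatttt
Myl3: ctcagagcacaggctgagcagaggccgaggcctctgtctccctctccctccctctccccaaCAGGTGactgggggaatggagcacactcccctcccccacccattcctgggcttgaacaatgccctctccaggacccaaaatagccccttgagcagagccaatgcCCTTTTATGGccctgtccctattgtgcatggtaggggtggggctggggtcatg
Myl7: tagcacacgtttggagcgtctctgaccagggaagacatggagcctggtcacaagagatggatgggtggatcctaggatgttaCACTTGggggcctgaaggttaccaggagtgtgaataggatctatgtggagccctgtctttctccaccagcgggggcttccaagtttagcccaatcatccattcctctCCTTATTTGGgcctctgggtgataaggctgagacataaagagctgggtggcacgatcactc
*Myl1* and *Mylpf* each held 1 E-box in the window, with the same letters in both, 219 bases before the start in *Myl1* and 46 bases before it in *Mylpf*. An E-box was present in 66.2% of all 32851 windows of this length in the table. A CArG box was present in 1.47% of all windows, among them those of *Myl3* and *Myl7*, and not in that of *Myl1* or *Mylpf*. Of the genes with a CArG box, *Myl3* was detected in every library and *Myl7* in 1, and a match is a description of the letters only.

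Levels of different genes were compared as RPKM, the CPM per kilobase of the gene's merged exons. In the 12 AAV libraries *Myl1* was at 13.5 to 18.6 RPKM, from 5.39 to 108 times the level of *Mylpf* in the same library. In the untreated libraries the ratio of *Myl1* to *Mylpf* was 5.15, 6.31, 0.688, 24.9 and 7.84 in WT mice 1 to 5. In KO mice 1 to 5 it was 0.690, 0.678, 4.30, 46.6 and 0.536. *Mylpf* thus exceeded *Myl1* per length in 4 untreated libraries and in none with AAV, and in 3 of those 4 the ratio was between 0.678 and 0.690. This order depends on the merged exon lengths, 2074 bases for *Myl1* and 1062 for *Mylpf*, which include minor transcripts. In CPM, *Myl1* was above *Mylpf* in those 4 libraries as well. The difference in level, *Myl1* minus *Mylpf*, was 13.3 to 18.5 RPKM in all AAV libraries, was 13.0 to 20.0 RPKM in 6 untreated ones, and was -17.5 RPKM in KO mouse 5, -22.1 in WT mouse 3, -31.4 in KO mouse 1 and -63.4 in KO mouse 2. *Acta1*, the skeletal muscle actin gene, was at 0 to 8.51 RPKM with AAV and at 0.659 to 841 RPKM without virus, and it was highest in the same 4 untreated libraries.

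**Figure D2:**
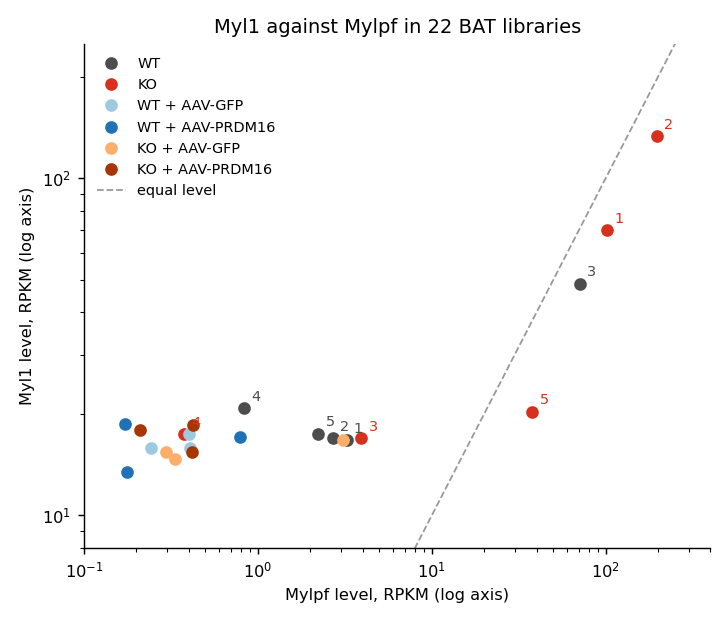
Level of *Myl1* against that of *Mylpf* in RPKM, both on log axes, with 1 point per library and the untreated mice numbered. *Myl1* runs flat at 13.5 to 20.8 RPKM over libraries with *Mylpf* below 4 RPKM and in KO mouse 5 (20.3 RPKM), and rises to 48.7, 70.0 and 133.3 RPKM in WT mouse 3, KO mouse 1 and KO mouse 2.

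*Myl3* is the essential light chain of slow skeletal fibers and the cardiac ventricle. *Myl3* (ENSMUSG00000059741, chr9:110741861-110769798, plus strand) was at 1.02, 0.615, 17.6, 0.857 and 0.728 CPM in untreated WT mice 1 to 5, and at 48.4, 83.4, 1.20, 0.238 and 4.85 CPM in KO mice 1 to 5. With AAV it was at 0.134 to 1.09 CPM. Its exons overlap those of *Pth1r* on the other strand, a gene with 630 to 3444 counts per library, and how reads were assigned to strand is not given in the sources used here, so its low levels are uncertain. *Myl2* (ENSMUSG00000013936, chr5:122100951-122113472, plus strand), the regulatory chain of the same motors, was at 0.587, 0, 31.6, 0.179 and 1.12 CPM in untreated WT mice 1 to 5, and at 108.6, 113.6, 1.03, 0 and 5.6 CPM in KO mice 1 to 5. It was thus high where *Mylpf* was high. In the AAV cohort *Myl2* had a count of 0 in 11 of 12 libraries and 40 counts (0.596 CPM) in mouse 1 of KO + AAV-GFP. A count of 0 allows up to 3 counts, or 0.0501 CPM in the shallowest AAV library, by counting error alone.

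*Myl4* encodes the essential light chain of the atrium and of embryonic muscle. *Myl4* (ENSMUSG00000061086, chr11:104550663-104595753, plus strand) was at 1.87, 1.35, 4.43, 3.09 and 1.77 CPM in untreated WT mice 1 to 5 and at 3.61, 4.25, 5.47, 4.37 and 4.15 CPM in KO mice 1 to 5. It was at 1.08 to 2.10 CPM with AAV. *Myl4* did not share the profile of *Mylpf*: KO mouse 4, the lowest untreated library for *Mylpf*, was above KO mouse 2, the highest. *Myl7* (ENSMUSG00000020469, chr11:5896637-5898782, minus strand), the atrial regulatory chain, had a count of 0 in all 10 untreated libraries and 1 count in 1 AAV library.

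Both kinases were high in the libraries with high *Mylpf*. *Mylk2* (ENSMUSG00000027470, chr2:152911352-152923068, plus strand), the skeletal muscle myosin light chain kinase, was at 0.823, 0.838, 25.6, 0.0701 and 0.355 CPM in untreated WT mice 1 to 5, and at 52.1, 49.5, 0.795, 0 and 7.74 CPM in KO mice 1 to 5. *Mylk4* (ENSMUSG00000044951, chr13:32700834-32783954, minus strand), a kinase of the same family, was at 2.22, 2.63, 22.9, 0.125 and 0.297 CPM in untreated WT mice 1 to 5, and at 42.4, 25.7, 0.726, 0 and 3.47 CPM in KO mice 1 to 5. For both, WT mouse 3 and KO mice 1 and 2 were highest and KO mouse 5 was next. In the AAV cohort each had a count of 0 in 9 of 12 libraries. The highest AAV level was in mouse 1 of KO + AAV-GFP for both, at 0.521 CPM for *Mylk2* and 3.31 CPM for *Mylk4*, followed by mouse 2 of WT + AAV-PRDM16.

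The spread between libraries was summarised as the SD of log2 CPM (prior count 2) within each cohort. In the untreated cohort the SD was 0.68 for *Myl4*, 1.07 for *Myl1*, 2.88 for *Myl3*, 3.12 for *Mylpf*, 3.55 for *Mylk4*, 3.87 for *Mylk2* and 4.57 for *Myl2*. Of all 17869 genes tested in this cohort, 79.7% had a smaller SD than *Myl1*, and the median gene had 0.65. *Myl1* without virus was therefore less variable than 5 of the other 6 members that passed the filter on low counts, but more variable than most genes. In the AAV cohort the SD was 0.14 for *Myl1*, 0.33 for *Myl4*, 0.93 for *Myl3* and 1.10 for *Mylpf*, and the other 4 members did not pass the filter. There 13.8% of the 18899 genes tested had a smaller SD than *Myl1*, and the median was 0.33. The *Mylpf* value rested on mouse 1 of KO + AAV-GFP, without which it was 0.62, while that of *Myl1* was then 0.15.

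The same measure was taken for lists of related genes. Without virus, all 12 fast skeletal muscle genes, 8 of 8 slow skeletal muscle genes and all 12 shared sarcomere genes had a larger SD than *Myl1*, with medians of 3.50, 3.89 and 3.21. In contrast, 0 of the 5 smooth and non-muscle light chain genes (*Myl6*, *Myl6b*, *Myl9*, *Myl12a* and *Myl12b*) did, with a median of 0.56. Of 11 tested genes of light chain phosphorylation (calmodulins, the myosin phosphatase and kinases other than *Mylk2* and *Mylk4*), 0 did, with a median of 0.53. With AAV the medians were 2.48 for fast skeletal, 1.23 for slow skeletal and 1.45 for shared sarcomere genes, of which 10, 4 and 8 were tested and all had a larger SD than *Myl1*. The levels were unlike, as *Myl1* had at least 2306 counts in each AAV library. *Myh4* and *Ckm* had a count of 0 in 9 of the 12, and *Acta1* in 1. Near 0 the SD of log2 CPM depends on few counts and on the prior count, which limits this comparison. The 5 smooth and non-muscle light chains had a median of 0.20, and only *Myl12b*, a non-muscle regulatory chain, was less variable than *Myl1*, at 0.11. In the AAV libraries the 12 fast skeletal muscle genes summed to 0.234 to 1.69 CPM in 10 libraries, 25.4 CPM in mouse 2 of WT + AAV-PRDM16 and 95.1 CPM in mouse 1 of KO + AAV-GFP. The 12 shared sarcomere genes summed to 11.4 to 42.4 CPM there, against 16.2 CPM in the lowest untreated library. *Myom1*, an M-band gene of this list, was at 6.88 to 18.2 CPM in the AAV libraries, with a median of 11.2 CPM. The other genes of the list each had a median of at most 1.23 CPM over the AAV libraries. In the libraries of WT + AAV-PRDM16 mice 1 and 3, 10 of the 12 fast skeletal and 6 of the 12 shared sarcomere genes were at 0. *Myl1* was at 28.0 and 38.6 CPM there. Of the 8 genes of developing muscle, 3 (*Myod1*, *Myf5* and *Pax7*) were at 0 in all 12 AAV libraries and 5 were detected in 1 to 4 of them, and the list summed to at most 0.343 CPM.

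**Figure D3:**
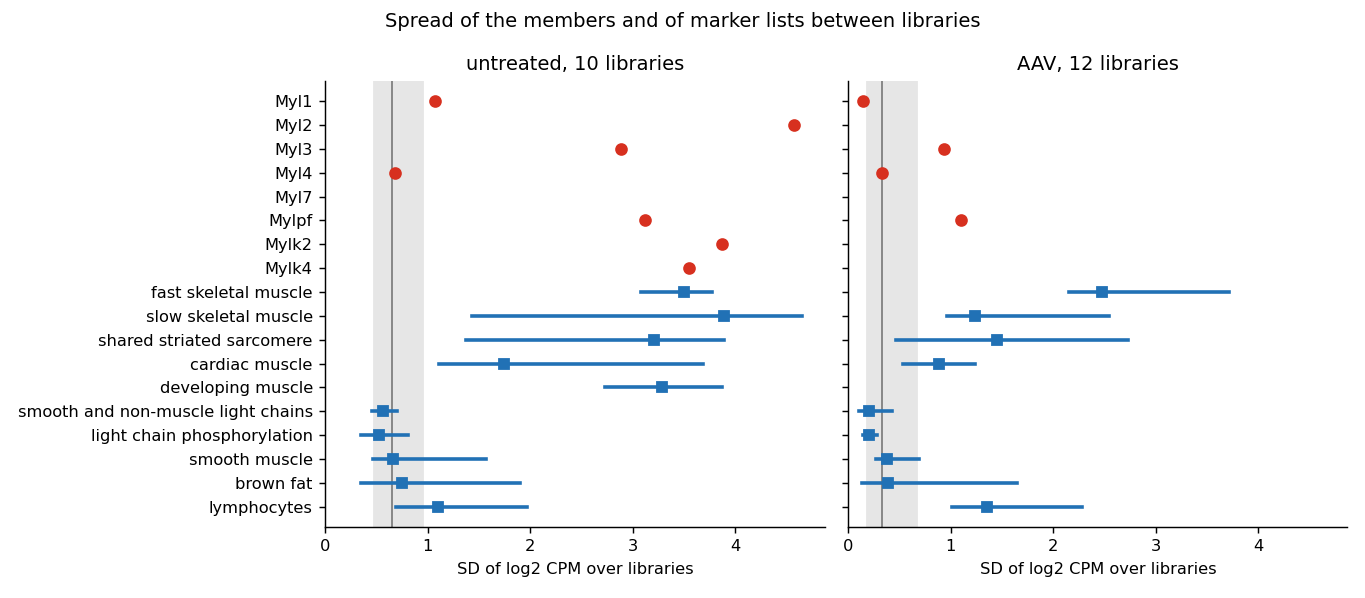
SD of log2 CPM over the libraries of each cohort for the members that passed the filter (red points) and for marker lists (blue squares at the median over tested genes, lines from the lowest to the highest), with the median of all tested genes as a grey line and their middle quartiles shaded. *Myl1* (1.07 without virus, 0.14 with AAV) lies to the left of all 3 skeletal muscle lists in both cohorts.

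Genes with the profile most like *Myl1* were ranked by the root-mean-square difference of log2 CPM, centred within each cohort, over all 22 libraries and 13581 genes, as a description. The nearest to *Myl1* was *Otud1*, a deubiquitinase gene, at 0.23, followed by *Tpm1* at 0.26 and *Tpm3* at 0.31, tropomyosin genes with muscle and non-muscle products, then *Tacc2* at 0.36 and *Schip1* at 0.36. The root-mean-square deviation of *Myl1* from its own cohort means was 0.69. *Tpm1* was at 322.3 and 412.3 CPM in untreated KO mice 1 and 2, at 207.2 CPM in WT mouse 3 and at 39.5 to 78.6 CPM in the AAV libraries, where fast skeletal muscle genes were near 0. Among the nearest to *Mylpf* were *Ldb3* at 0.68, *Pygm* at 0.79, *Itgb1bp2* at 0.83 and *Tpm2* at 0.84, against 2.14 for *Mylpf* itself. *Ldb3* encodes a Z-disc protein and *Pygm* the muscle glycogen phosphorylase.

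Reads of *Myl1* could be shared with a near copy. Of the 31-base words in its transcripts, 14.5% also occur in *Mylf-ps*, a pseudogene, whereas *Mylpf* and *Myl7* share 0. The counts of *Mylf-ps* came to 1.43% to 7.46% of those of *Myl1* in untreated libraries and to 1.92% to 13.0% with AAV. The part of shared reads in the *Myl1* level was not tested, and counts per gene do not separate the transcripts of *Myl1* that begin at its 2 starts.

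The first comparison asked whether loss of CPEB2 changed these transcripts in untreated BAT. At an FDR of 0.05 edgeR called 0 of the 7 members that passed the filter, against 0% of all genes tested, and 1 member, *Myl4*, had an unadjusted p under 0.05 (2836 genes, or 15.9%, in all). DESeq2 also called 0 members. The mean of *Myl1* was 107.0 ± 105.5 CPM in libraries labelled KO and 50.04 ± 28.7 CPM in WT (SD, n = 5 each), a log2 fold change (log2FC, KO over WT) of 1.10 (SE 0.59, adjusted p = 0.349 by edgeR). For *Mylpf* the means were 72.3 ± 87.7 and 16.9 ± 32.5 CPM, and the log2FC was 2.10 (SE 1.42, adjusted p = 0.427). For *Myl4* they were 4.37 ± 0.681 and 2.50 ± 1.26 CPM, with a log2FC of 0.81 (SE 0.35, adjusted p = 0.308). The other log2FC values were 2.78 for *Myl2*, 2.74 for *Myl3*, 2.00 for *Mylk2* and 1.37 for *Mylk4*. The groups overlapped in every member, and 1.40% of all genes did not overlap. The median log2FC of these 7, which leave out *Myl7*, was 2.00 and that of all genes 0.04, as a description. No difference passed the adjusted test, though that of *Myl4* exceeded both of its SDs.

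By the study's own thresholds, 2-fold and an FDR of 0.5, 5 of the 7 members (*Myl1*, *Myl2*, *Myl3*, *Mylpf* and *Mylk2*) were higher in libraries labelled KO, against 6.04% of all genes. The thresholds were applied here to the edgeR fit, whereas the study used the online tool iDEP, so the genes called can differ. Since the members were chosen with results of these libraries known, the count is a description. It was 0 without WT mice 1 and 2 together, and 0 without WT mouse 1, WT mouse 2 or KO mouse 5 alone. It was 1 without WT mouse 5 or KO mouse 2, and 2 without KO mouse 1. Without KO mouse 2 the log2FC of *Myl1* was 0.37, and without WT mouse 3 it was 1.52. For *Mylpf* these values were 1.17 and 4.92. Without WT mice 1 and 2 the log2FC was 0.86 for *Myl1* and 1.46 for *Mylpf*. Without KO mouse 1, whose *Cpeb2* level goes against its label, it was 0.96 and 1.91. A term for whether a library held Y-linked transcripts brought the count to 0, and with it the log2FC of *Myl1* was 1.07. By the same thresholds 7 of 12 fast skeletal, 6 of 8 slow skeletal and 6 of 12 shared sarcomere genes were higher, and 0 of the 5 smooth and non-muscle light chains were. Of these lists 0 genes passed an FDR of 0.05. *Myl6*, the essential light chain of smooth and non-muscle myosin, was at 320 ± 66.1 CPM in KO and 233 ± 74.8 CPM in WT (log2FC 0.46, adjusted p = 0.387). The summed fast skeletal markers were highest in the same 4 libraries as *Mylpf*, *Myl2*, *Myl3*, *Mylk2* and *Mylk4*, being 3455 CPM in WT mouse 3 and 6131, 6980 and 1239 CPM in KO mice 1, 2 and 5, and at most 180 CPM in the other 6 libraries. *Myl1* was not high in KO mouse 5, and *Myl4* was highest in KO mouse 3, where the markers summed to 128 CPM. Their part in the members' levels was not tested. By RT-qPCR, PCR of reverse-transcribed RNA, the paper also reports higher *Myl1* and other muscle mRNAs in KO BAT. It describes that BAT as from different cohorts, of several ages and both sexes, with a wide range of fold changes. Those values are not part of the libraries counted here.

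The AAV cohort asked whether genotype or ectopic PRDM16 changed the members. Only *Myl1*, *Myl3*, *Myl4* and *Mylpf* passed the filter there, and 0 of these 4 were called at an FDR of 0.05 in any comparison. The share of all genes called was 0.0529% between KO and WT with AAV-GFP, 0.0476% between KO and WT with AAV-PRDM16, and 0% for AAV-PRDM16 against AAV-GFP in WT, the same in KO, and the interaction of genotype and virus. At an unadjusted p under 0.05 there were 0 members in each of the 5, against 3.19% to 13.7% of all genes, and DESeq2 called 0 members in each, against 240, 626, 147, 262 and 1 of all genes. With 4 members tested, 0 lies near these shares. For *Myl1* the log2FC was -0.07 (SE 0.12, adjusted p = 0.932 by edgeR) for KO against WT with AAV-GFP and 0.08 (SE 0.12, adjusted p = 0.841) with AAV-PRDM16. For AAV-PRDM16 against AAV-GFP it was 0.00 (SE 0.12) in WT, a value that turned slightly negative with no filter on low counts, and 0.15 (SE 0.12) in KO, and the interaction was 0.15 (SE 0.17). The comparisons of AAV-PRDM16 with AAV-GFP share their control libraries with those of genotype. The largest fitted differences were in *Mylpf*, with an interaction of -1.93 (SE 1.23) and differences of 1.81 (SE 0.87, adjusted p = 0.576 by edgeR) for KO against WT with AAV-GFP and -1.81 (SE 0.88, adjusted p = 0.857) for AAV-PRDM16 against AAV-GFP in KO. All 3 rested on mouse 1 of KO + AAV-GFP, without which they were 0.03, -0.15 and 0.15. The other 2 libraries of that group, at 0.314 and 0.354 CPM, lay inside the *Mylpf* range of WT + AAV-GFP, at 0.258 to 0.430 CPM.

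*Myl4* was the tested member with groups that did not overlap. It was at 1.98, 2.02 and 2.10 CPM in KO + AAV-GFP, above WT + AAV-GFP at 1.48, 1.95 and 1.08 CPM and above KO + AAV-PRDM16 at 1.74, 1.90 and 1.09 CPM. Groups did not overlap in 13.4% and 9.43% of all genes in these 2 comparisons. In the other 2 comparisons of groups, 0 tested members were without overlap, against 22.8% of all genes for KO and WT with AAV-PRDM16 and 14.2% for AAV-PRDM16 and AAV-GFP in WT. The log2FC of *Myl4* was 0.44 (SE 0.27, adjusted p = 0.686 by edgeR) for KO against WT with AAV-GFP and -0.36 (SE 0.27, adjusted p = 0.9999) for AAV-PRDM16 against AAV-GFP in KO. *Myl3* differed by 0.25 (SE 0.72) and 0.34 (SE 0.72) between the genotypes with AAV-GFP and AAV-PRDM16.

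**Figure D4:**
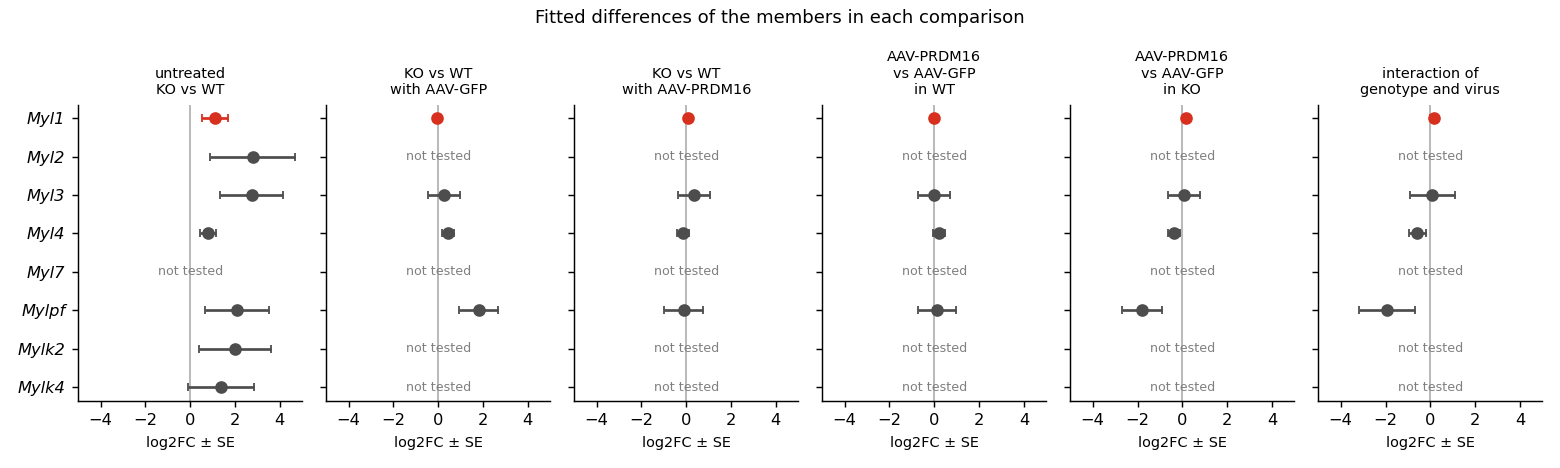
Fitted log2FC with its SE from edgeR for each member in the untreated comparison and in the 5 contrasts of the AAV cohort, with members that did not pass the filter on low counts marked as not tested. *Myl1* (red) is at 1.10 ± 0.59 without virus and between -0.07 and 0.15 in the AAV contrasts, and no member reaches an FDR of 0.05.

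Over the 6 groups the mean level of *Myl1* was highest in untreated KO (107.0 CPM) and WT (50.04 CPM), followed by KO + AAV-PRDM16 (35.9 ± 3.38), WT + AAV-PRDM16 (34.1 ± 5.49), WT + AAV-GFP (34.0 ± 1.98) and KO + AAV-GFP (32.3 ± 2.14 CPM, SD, n = 3 each). Each step between neighbours in this order was smaller than the larger of their SDs. The untreated WT mean rested on mouse 3, being 37.3 CPM without it. The untreated KO mean was 64.6 CPM without mouse 2, with mouse 1 still at 145.2 CPM. By median the order differed, with untreated KO at 42.1, KO + AAV-PRDM16 at 37.1 and untreated WT at 36.2 CPM. The 2 cohorts were scaled separately, so levels between them are set side by side without a test.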

How the data were processed

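mRNA libraries of BAT were sequenced from 22 mice, 1 library per mouse, in 6 groups taken from the sample labels. The authors deposited, for each cohort, the count of reads on each Ensembl gene identifier as whole numbers without normalization. The submitters' processing notes list bcl2fastq 2.20, Trimmomatic 0.36, HISAT2 and the build GRCm38.p6. The counting tool, the annotation release and the handling of strand, duplicates and multiply mapped reads are not given in the sources used here. Library totals ran from 55320927 to 162721202 counts, and intervals read from them cover counting error only. For every pair of libraries of a group the median chi-square per gene was at least 5.9, well above sampling noise, so each counted as 1 replicate, and the p-values measure the spread between mice.

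Symbols and exon lengths came from GENCODE M21, which matched 55141 of 55487 identifiers, and upstream sequences from RefSeq. Genes kept by filterByExpr of edgeR 4.0.16 in R 4.3.3 (17869 without virus, 18899 with AAV) were TMM-scaled and compared by the two-sided quasi-likelihood test, p-values being adjusted by Benjamini and Hochberg's method over every gene in the fit. The 12 AAV libraries shared 1 fit. The common dispersion was 0.312 without virus and 0.0887 with AAV. The fits were tested on simulated data before use. Most simulated 2-fold differences between the genotypes were missed, without virus and with AAV-GFP, so a member not called may still differ. RPKM divides CPM by merged exon length, which includes retained introns and other minor transcripts.

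The members and gene lists were chosen with earlier results of these data known. Every member is named, with the 5 genes nearest in profile to *Myl1* and *Mylpf* (provisional and pseudogene names left out; 1 gene near *Mylpf* is not reported here), up to 4 members of each list with the highest mean CPM, and *Cpeb2*, and single list genes outside this rule, such as *Myod1*, *Myf5* and *Pax7*, were named after their values were seen. Results were recomputed without the filter, with RLE scaling, with DESeq2 1.42.0, with the replicate number as a block, with each library left out, with WT mice 1 and 2 left out, with a covariate for Y-linked transcripts, with only the groups compared, and with other prior counts (0.5 and 5) or scalings for the spread. Leaving out KO mouse 1 together with WT mice 1 and 2 was chosen after seeing the data.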

Additional observations from a re-analysis of the deposited data

Results flagged for a closer look

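In the untreated WT group, 6 members had mouse 3 far above the other 4 mice, by Dixon's test of the gap to the nearest mouse against the group's range. *Myl1* was at 100.9 CPM there, against 43.2 CPM in the next mouse. *Myl2* was at 31.6 against 1.12 CPM, *Myl3* at 17.6 against 1.02 CPM and *Mylpf* at 75.1 against 3.44 CPM. The kinases *Mylk2* and *Mylk4* were at 25.6 against 0.838 CPM and 22.9 against 2.63 CPM. The 6 marks, of 14 groups of members looked at, come from 1 library and are not independent of each other or of how the members were chosen, so the rate at which chance marks a group, about 1 in 20, is no yardstick for them. The KO group, in which 2 mice were high, had none.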

How the results depend on the processing

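No member passed an FDR of 0.05 under any alternative run. Of 455 values of a member's log2FC under the alternatives, 421 kept their direction and 34 changed sign, none of them called, and the cause was not tested. The 5 members higher in KO at 2-fold and an FDR of 0.5 became 0 without WT mice 1 and 2, with those and KO mouse 1 left out, and with the Y-linked covariate, and ranged from 0 to 7 when single libraries were left out. Same-numbered libraries did not deviate together (correlations of -0.292 to 0.111 without virus and -0.0912 to 0.154 with AAV), so the numbers were not taken to pair mice; with the replicate block the count was 2. The block also turned *Myl3* to -0.076 (KO against WT, AAV-PRDM16), 0.24 (PRDM16 against GFP in WT) and -0.23 (interaction), and *Myl1* to -0.0034 (PRDM16 against GFP in WT), which was -0.0094 with no filter. It moved no member past an FDR of 0.05. *Mylk4* without virus became -0.083 when WT mice 1 and 2 and KO mouse 1 were left out.

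With single AAV libraries left out, the log2FC for KO against WT with AAV-GFP ranged from -0.26 to 0.81 for *Myl3* and from -0.15 to 2.28 for *Mylpf*. With AAV-PRDM16 it ranged from -0.050 to 0.18 for *Myl1*, -0.062 to 0.81 for *Myl3*, -0.29 to 0.065 for *Myl4* and -0.47 to 0.998 for *Mylpf*. For the virus in WT it ranged from -0.10 to 0.13 for *Myl1*, -0.38 to 0.55 for *Myl3* and -0.998 to 0.47 for *Mylpf*, and in KO from -0.34 to 0.60 for *Myl3* and -2.28 to 0.15 for *Mylpf*. The interaction ranged from -0.47 to 0.60 for *Myl3* and from -2.40 to 0.027 for *Mylpf*. Over all genes, edgeR called 10 (AAV-GFP) and 9 (AAV-PRDM16) by genotype and 0 by virus in either genotype, where DESeq2 called 240, 626, 147 (WT) and 262 (KO), and 1 against 0 for the interaction. By genotype the block gave 1 and 5 genes, fits to only the groups compared 0 and 2, and single libraries left out 0 to 8 and 0 to 15, with 0 to 2 by virus in either genotype and 0 to 1 for the interaction. Over prior counts, scalings and left-out libraries the SD of *Myl1* stayed between 0.77 and 1.25 without virus and between 0.12 and 0.15 with AAV.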
